A study of Mus musculus with 50 samples.

Results

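Metallothioneins are small cysteine-rich proteins that bind zinc and copper, and 3 of their genes in the mouse, Mt1, Mt2 and Mt3, were measured on these arrays. They were followed through every probe that the platform's annotation assigns to one of them, which gave 6 of the 20355 probes (1 for Mt1, 2 for Mt2, 3 for Mt3) and 3 of the 9930 named genes. Another family member, Mt4, had 0 named probes. The family was selected on its mean testis and spinal cord ratios, which were known beforehand, so those ratios and the difference between the tissues are described below without a test. The choice had no threshold.

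The ratios set wobbler homozygotes (wr/wr) against wild-type (wt) mice. Wobbler is a recessive mutation of Vps54, a subunit of a complex that tethers vesicles at the Golgi. Homozygous mice lose motor neurons, and males make sperm without a normal acrosome. For the testis, 4 arrays per animal compared 10 wr/wr males with pooled wt testis RNA, and for the spinal cord, 10 arrays compared 3 wr/wr RNAs with pooled wt cord RNA. Cord pool1 holds mice 6069, 6335, 6493 and 5997, cord pool2 holds mice 5906, 5905, 6065 and 6163, and the last cord RNA came from mouse 5995 alone. All 9 of these animals are also among the testis mice. Each cord pool had 4 arrays, and the cord RNA of mouse 5995 had 2, with 1 per dye. The sources differ on the size of a reference pool, since the labels list 10 wt mice and the labelling protocol gives 6. The spread among wt mice enters no value, since each tissue had a single wt pool, and in whole tissue fewer cells of a type cannot be told apart from less RNA per cell.

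Mt1 and Mt2 are made in most tissues and rise when cells take up zinc, copper or cadmium. The zinc-finger factor MTF1 senses zinc and binds metal response elements before these genes, which also respond to glucocorticoids, to cytokines acting through STAT3 and to oxidants. Mt3, first known as growth inhibitory factor, is found mainly in neurons and astrocytes of the central nervous system and is much less inducible by metals. In the testis, metallothioneins are present in Sertoli cells and germ cells and hold zinc and cadmium. The genes lie side by side on chromosome 8 in the order Mt4, Mt3, the long noncoding gene Gm39227, Mt2 and Mt1.

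The promoters of the 3 genes are shown because Mt1 and Mt2 respond to metals through the metal response element, and Mt3 is much less inducible. The zinc genes measured below include Mtf1, the gene of the factor that binds this element. They come from RefSeq on GRCm38.p6, all on the plus strand, from 250 bases before to 50 bases after the start site, at chr8:94178839-94179138 for Mt1, chr8:94172368-94172667 for Mt2 and chr8:94152357-94152656 for Mt3. Capitals mark matches on either strand to the cores TGCACNC or TGCGCNC.
Mt1: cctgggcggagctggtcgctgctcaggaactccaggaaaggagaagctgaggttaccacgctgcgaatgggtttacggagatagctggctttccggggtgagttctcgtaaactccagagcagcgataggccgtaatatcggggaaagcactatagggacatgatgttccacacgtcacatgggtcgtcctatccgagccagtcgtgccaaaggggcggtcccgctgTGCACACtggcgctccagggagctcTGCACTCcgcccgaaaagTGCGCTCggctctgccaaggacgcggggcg
Mt2: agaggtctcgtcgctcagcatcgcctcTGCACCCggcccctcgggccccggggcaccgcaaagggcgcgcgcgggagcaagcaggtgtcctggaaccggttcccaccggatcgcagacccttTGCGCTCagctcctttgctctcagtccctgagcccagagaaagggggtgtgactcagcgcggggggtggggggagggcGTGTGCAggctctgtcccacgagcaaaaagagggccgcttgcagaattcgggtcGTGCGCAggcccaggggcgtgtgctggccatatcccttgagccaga
Mt3: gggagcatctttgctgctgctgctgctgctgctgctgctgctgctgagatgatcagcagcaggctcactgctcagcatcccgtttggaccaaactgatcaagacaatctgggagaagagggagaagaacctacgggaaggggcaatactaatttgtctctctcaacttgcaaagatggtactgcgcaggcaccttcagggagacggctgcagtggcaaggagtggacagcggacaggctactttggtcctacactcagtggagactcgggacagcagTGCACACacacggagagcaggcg
The Mt1 window held 3 matches, beginning at positions -23, 2 and 20, with the start site as 0. The Mt2 window held 4, at -223, -128, -50 and 4, of which those at -50 and 4 lie on the other strand. The Mt3 window held 1, at position 27. Of 32544 promoters of the same length, 25.9% held at least 1 match, 1.99% at least 3 and 0.522% at least 4. The core of the antioxidant response element, TGACNNNGC, was found once, at -79 in the Mt2 window, and in 12.4% of all promoters. No match of the 2 metal cores overlapped another, and a match describes letters only.

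All values are log2 ratios of wr/wr over wt, given as mean ± SD over RNAs. That direction is likely, since the labels name the wr/wr RNA as the first channel, but no source used here states it. Numbers ending in 0 made up 8.967% to 11.407% of the values on each of the 25 arrays with wr/wr RNA in Cy5 and 0% on each of the 25 with it in Cy3, so the 2 sets of columns were not written alike. Values above 15 in size were 586 above 0 and 0 below 0 on the Cy5 arrays. On the Cy3 arrays they were 0 above 0 and 886 below 0. Such values thus changed side with the dye. Testis arrays carried values for 19070 to 20189 probes, cord arrays for 18338 to 20034. Array medians lay between -0.027 and 0.032 in testis and between -0.091 and 0.058 in cord. With ratios and no intensities, neither the level of a metallothionein nor that of a tissue marker can be given, and Vps54 had 0 named probes.

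Mt3, the neuronal and astrocytic member, had the probe with the lowest mean of the 6 in the testis, as the ratios are read here. With the sign of the Cy3 arrays turned, the lowest would be Mt2 probe 11896 at -0.55, and Mt3 probe 19136 would be at 0.05. On probe 19136, the ratios in order were -1.59 in mouse 5907, -1.54 in 5995, -1.29 in 6069, -1.08 in 6335, -0.84 in 5906, -0.55 in 6065, -0.42 in 5997, -0.38 in 6493, -0.30 in 6163 and -0.05 in 5905. All 10 testes were below the wt pool, with a mean of -0.80 ± 0.55 (n = 10), or 0.573 of the wt level, at percentile 0.72 of all tested probes. The ratio was below 0 on 19 of 20 arrays with wr/wr RNA in Cy5 and on 19 of 20 with it in Cy3. As background, all 10 mice were below 0 for 3.25% of probes and above 0 for 3.44%, and limma called 12.3% of 20218 probes in the testis at an adjusted p under 0.05, 7.28% higher and 5.06% lower. Nothing is read from the probe's own place among them, since its testis ratio was known when it was chosen.

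The other Mt3 probes gave no such ratio. Probe 17185 averaged 0.04 ± 0.21 (n = 10), with a lowest value of -0.25 in mouse 6069, a median of 0.01 and a highest value of 0.42 in mouse 6065. Probe 19137 averaged 0.05 ± 0.12 (n = 10), between -0.13 and 0.27. Their mice lay on both sides of 0 and overlapped probe 19136 only at its upper end. The means of the 3 probes thus spanned 0.85, where the median span over 798 genes with 3 or more probes was 0.19, and 2.76% of those genes had a span as wide. This span rests on the testis mean of probe 19136, known beforehand, so nothing is read from its place among those genes. Averaged over its probes, Mt3 was at -0.24 ± 0.20 in the testis. Which transcript each probe binds was not analysed here, because no probe sequences were used.

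**Figure D1:**
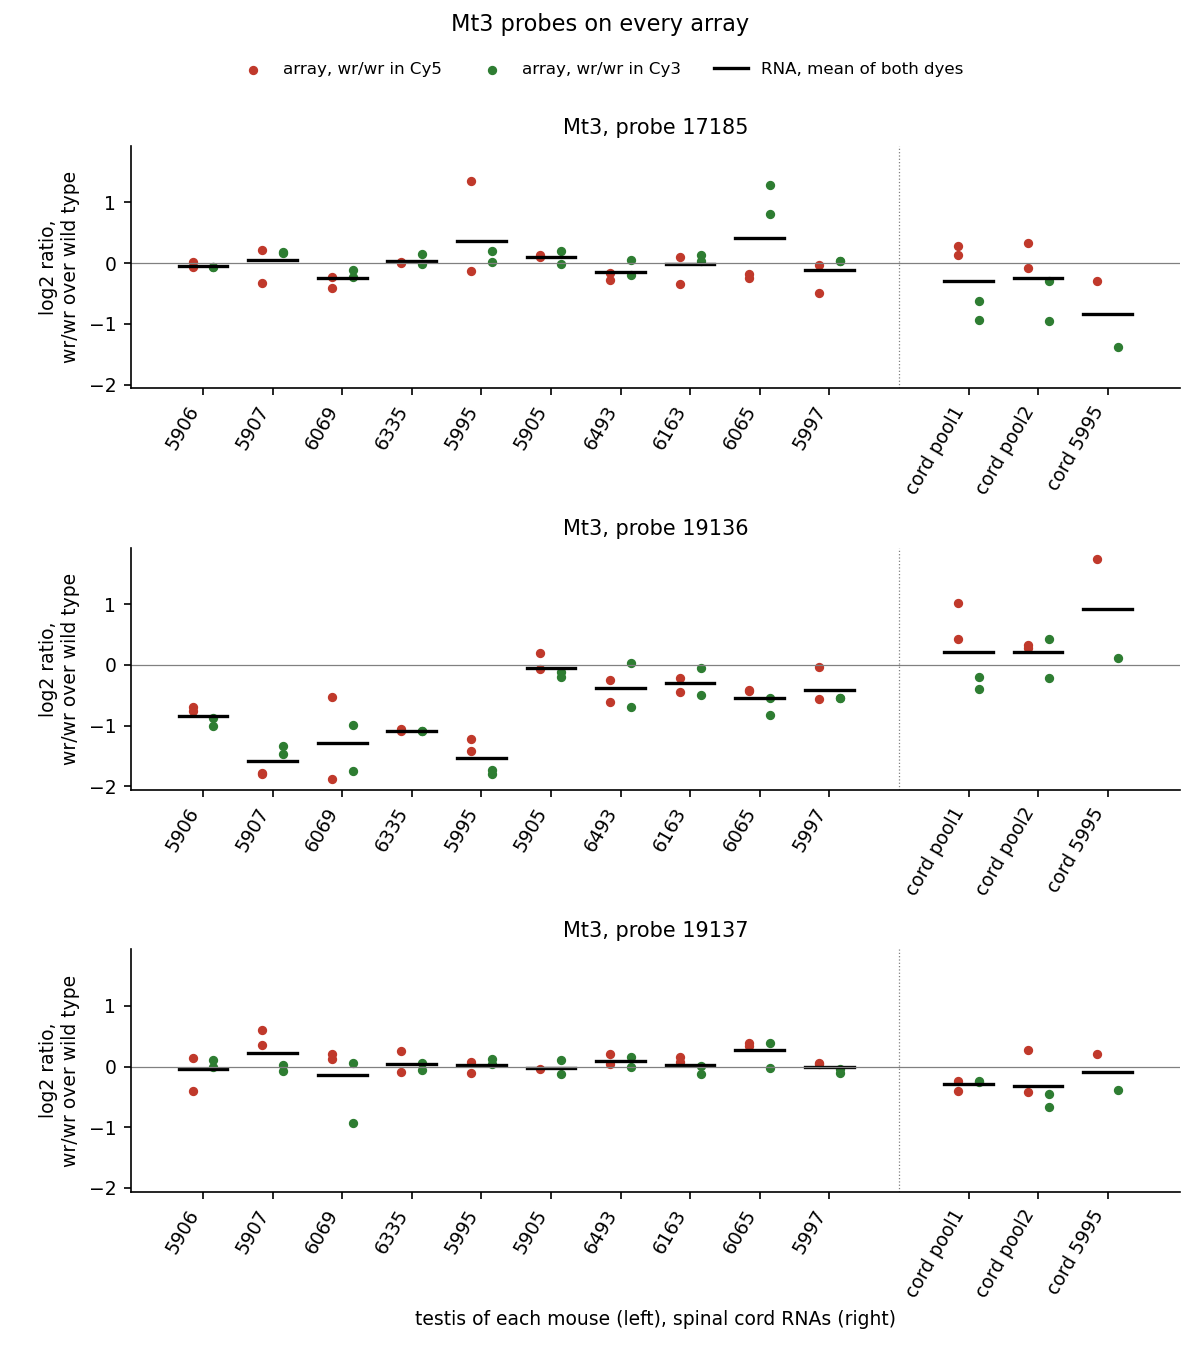
Log2 ratio of wr/wr over wt (vertical axis) for the 3 Mt3 probes in the testis of each of 10 mice and in the 3 cord RNAs (horizontal axis). Dots are single arrays, red with wr/wr RNA in Cy5 and green in Cy3, and bars are the mean of both dyes. Probe 19136 is below 0 in all 10 testes and above 0 in all 3 cord RNAs, while probes 17185 and 19137 lie around 0 in the testis.

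In the spinal cord the same 3 probes lay in another order. Probe 19136 was at 0.22 in pool1, 0.20 in pool2 and 0.93 in the cord of mouse 5995 (0.45 ± 0.41, n = 3). Probe 17185 was at -0.29, -0.25 and -0.83 in these RNAs (-0.46 ± 0.33), and probe 19137 at -0.29, -0.32 and -0.08 (-0.23 ± 0.13). As the ratios are read here, all 3 RNAs were thus above the wt pool on 1 Mt3 probe and below it on the other 2. The cord RNA of mouse 5995 had 1 array per dye, on probe 19136 at 1.749 in Cy5 and 0.105 in Cy3. All 3 RNAs lay above 0 for 18.5% of 17055 probes and below 0 for 20.7%, and limma called 0.0% of probes in the cord (1476 at an unadjusted p under 0.05). The span of the Mt3 probes was 0.91 in the cord, against a median of 0.47 over 571 genes, and 13.1% of those genes had a span as wide. The cord ratios, too, were known beforehand, so nothing is read from that place. The average over the probes was -0.08 ± 0.07.

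The testis ratio minus the cord ratio of probe 19136 was -1.25, of probe 17185 0.50 and of probe 19137 0.28. Mouse 5995, the one animal measured alone in both tissues, had on probe 19136 the second lowest testis ratio and the highest cord ratio. That cord ratio rests on 1 array per dye. For 3.05% of 16636 probes, all 10 testes were on one side of 0 and all 3 cord RNAs on the other. A tissue difference was called by limma for 21.2% of probes, 10.8% higher and 10.4% lower in testis than in cord. A paired fit of each cord RNA with the testes from the same animals called 0 probes. That fit held only 3 differences, against 10 testis and 3 cord RNAs in the unpaired fit, so the 2 counts differ in power. The cord value of probe 19136 differed by dye orientation, at 0.93 ± 0.75 with wr/wr RNA in Cy5 and -0.03 ± 0.23 in Cy3 (n = 3). On single cord arrays it was above 0 on 5 of 5 Cy5 arrays and on 2 of 5 Cy3 arrays.

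The testes of the 10 mice differed from each other on probe 19136 by more than repeated arrays of 1 mouse did. This spread among mice does not enter the mean ratio and was tested across all probes with a moderated F in limma, in which 9.85% of probes were called. For probe 19136 the F was 14.6 on 9 degrees of freedom, with an adjusted p of 2.63e-06 (adjusted p between 7.76e-08 and 8.33e-05 under 14 other settings). The spread was not tested with the Cy3 arrays turned in sign, so this result holds for the ratios as read here. The range of probe 19136 over mice was 1.55, and the largest gap between neighbours in the order of mice was 0.284. The SD between single arrays of 1 mouse was 0.289. A mouse's ratio is a mean over 4 arrays, so this gap and this SD cannot be compared directly. Each mouse had its own arrays, so a difference between mice cannot be told apart from one between their labellings. The other 5 probes did not pass this test (limma, adjusted p 0.222 for Mt1, 0.463 and 0.292 for Mt2, 0.441 and 0.654 for the other Mt3 probes). Mt2 probe 13607 passed once mouse 6065 was left out (limma, adjusted p = 0.0399). In the cord, limma called 0.0% of probes for spread among RNAs (1617 at an unadjusted p under 0.05), and the 6 probes had adjusted p between 0.525 and 0.951.

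Mt1, an inducible member, lay near 0 in the testis. Its probe 14434 was at -0.25 in the lowest mouse, 5997, and at 0.37 in the highest, 6493, and averaged 0.05 ± 0.19 (n = 10), with 6 mice above 0. Both tissues' values sat on both sides of 0, since the cord RNAs were at 0.22 in pool1, 0.10 in pool2 and -0.51 in mouse 5995 (-0.07 ± 0.39, n = 3). The difference testis minus cord was 0.12.

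The Mt1 ratio depended on the dye. With wr/wr RNA in Cy5 it averaged 0.31 in the testis, against -0.20 in Cy3, and the Cy5 mean was the higher in 9 of 10 mice. The difference of 0.51 ± 0.34 passed the test across all probes (limma, adjusted p = 0.0301), in which 4.69% of 20218 probes were called, 3.96% with Cy5 above Cy3 and 0.732% with Cy5 below Cy3. The call was lost (limma, adjusted p between 0.0559 and 0.0752) when 1 of 8 mice was left out, namely 5906, 5907, 6069, 6335, 5995, 5905, 6163 or 5997. In the cord the Cy5 and Cy3 means were 0.62 and -0.75, and the Cy5 mean was the higher in 3 of 3 RNAs. That difference of 1.37 ± 0.30 did not pass (limma, adjusted p = 0.364), and limma called 0.0% of probes in the cord for dye orientation (2329 at an unadjusted p under 0.05). Averaging the orientations removes a constant dye effect, so the Mt1 ratio near 0 is a mean of opposite signs.

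Mt2, the other inducible member, also averaged near 0 in the testis, and its probes did not follow each other over mice (r = -0.187). Probe 13607 was at -0.57 in mouse 5995, the lowest, -0.16 at the median and 0.34 in mouse 5997, the highest, with 7 of 10 mice below 0 and a mean of -0.13 ± 0.25. Probe 11896 ran between -0.64 in mouse 6065 and 1.54 in mouse 5907, with 6 mice below 0 and a mean of 0.03 ± 0.65. The value in mouse 5907 came from 1 Cy3 array at 3.87, its other Cy3 array having no value, while its Cy5 mean was -0.79. Without that mouse the mean of probe 11896 was -0.14.

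In the cord, probe 13607 was at 0.12 in pool1, 0.26 in pool2 and 0.26 in mouse 5995 (0.21 ± 0.09, n = 3), above the wt pool in all 3. Probe 11896 was at 0.28, -0.54 and 0.53 in these RNAs (0.09 ± 0.56), on both sides of 0. The differences testis minus cord were -0.35 for probe 13607 and -0.06 for probe 11896. By dye, probe 13607 averaged -0.06 in Cy5 and 0.49 in Cy3 in the cord, and probe 11896 averaged -0.48 and 0.66. Both gaps missed the threshold (limma, adjusted p = 0.365 and 0.364).

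**Figure D2:**
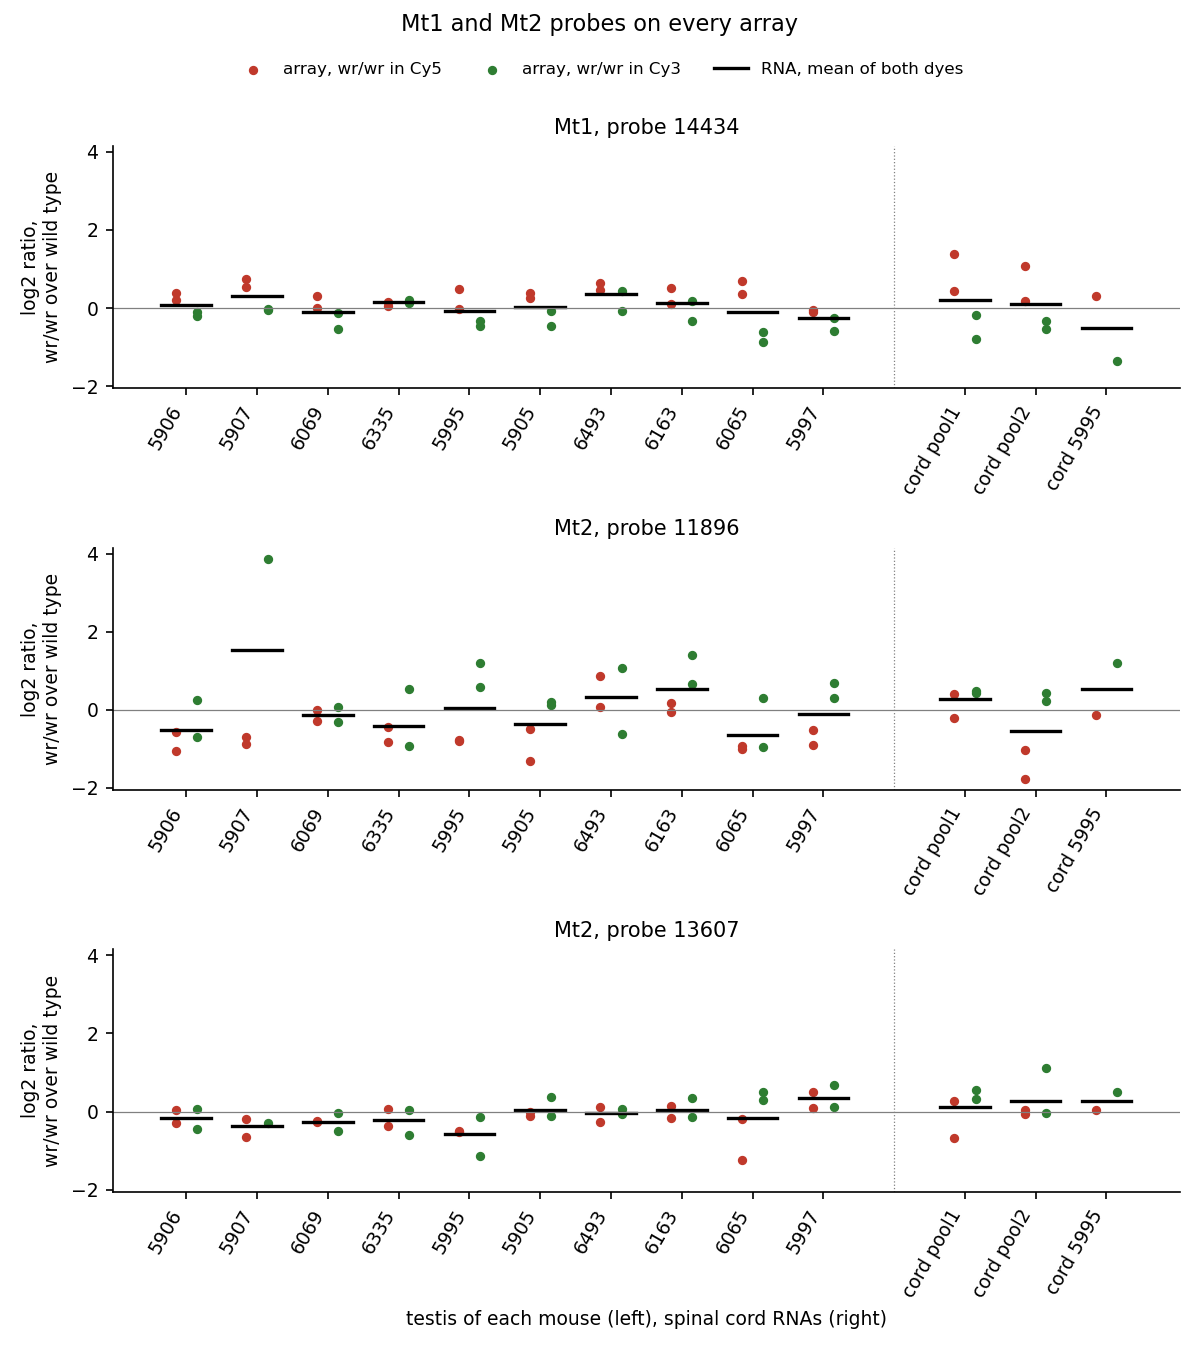
Log2 ratio of wr/wr over wt (vertical axis) for the Mt1 probe and the 2 Mt2 probes in 10 testes and 3 cord RNAs (horizontal axis). Dots are single arrays by dye and bars the mean of both dyes. The Mt1 dots separate by dye in the cord, and the bar of mouse 5907 on Mt2 probe 11896 rests on 1 Cy3 array at 3.87.

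In the testis, Mt3 probe 19136 gave nearly the same ratio in either dye. Its Cy5 and Cy3 means were -0.75 and -0.86, a difference of 0.10 ± 0.24 (limma, adjusted p = 0.423). Mt2 probe 11896 had means of -0.52 and 0.58, a difference of -1.10 ± 1.37 that did not pass (limma, adjusted p = 0.123). Mt2 probe 13607 and Mt3 probes 17185 and 19137 had adjusted p of 0.448, 0.41 and 0.295 in the same limma test. In the cord all 6 probes had adjusted p between 0.364 and 0.507, and Mt3 probe 17185 showed means of 0.02 and -0.93.

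**Figure D3:**
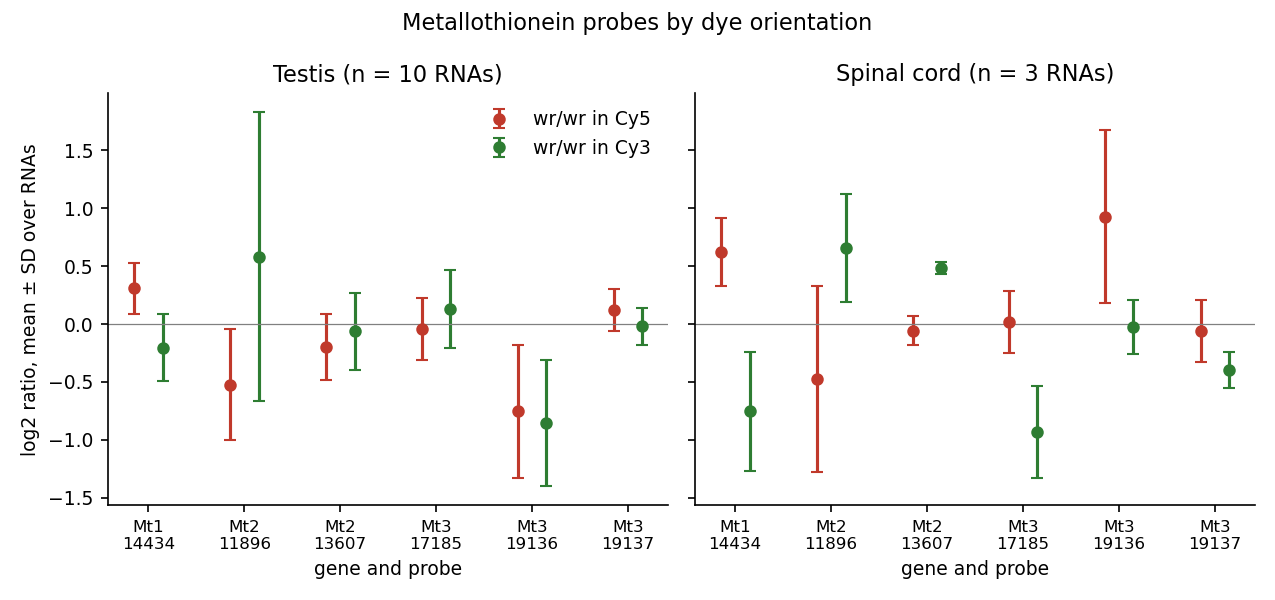
Mean log2 ratio ± SD over RNAs (vertical axis) for each metallothionein probe (horizontal axis) with wr/wr RNA in Cy5 (red) or Cy3 (green), in testis (10 RNAs) and spinal cord (3 RNAs). Mt3 probe 19136 has nearly the same mean in both dyes in testis, -0.75 and -0.86, while Mt1 changes sign between dyes in both tissues.

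The Cy5 and Cy3 means of 1 RNA correlated below 0 across all probes in testis mice 5905 (Spearman rho -0.223), 6065 (-0.309) and 5997 (-0.112) and in every cord RNA (-0.228 in pool1, -0.0205 in pool2 and -0.0606 in mouse 5995). Without these 3 testis mice, Mt3 probe 19136 averaged -1.003, Mt3 probes 17185 and 19137 0.00 and 0.04, Mt1 0.12, and Mt2 probes 13607 and 11896 -0.22 and 0.20. All 3 mice lie in the upper part of the order for probe 19136, at -0.05, -0.55 and -0.42.

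Mt2 probe 13607 and Mt3 probe 19136 varied together over the 10 testes. Their ratios gave Pearson r = 0.827 and Spearman rho = 0.891 (permutation p = 0.00174 and 0.00121, adjusted over 15 pairs of metallothionein probes 0.0261 and 0.0181). Without mice 5995 and 5997, the farthest from the median of probe 13607, r was 0.962. Within the Cy5 arrays r was 0.467 and rho 0.697 (permutation p = 0.176 and 0.031), and within the Cy3 arrays r was 0.804 and rho 0.794 (permutation p = 0.00601 and 0.00897). Both probes were read on the same arrays against the same wt pool. The other 14 pairs had adjusted permutation p of at least 0.424 for r, and the 3 Mt3 probes correlated with each other at r = -0.124, -0.0758 and 0.596. Mt2 probe 11896 correlated with Mt3 probe 19136 at r = -0.35 and rho = -0.103, so the likeness held for 1 of the Mt2 probes only.

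**Figure D4:**
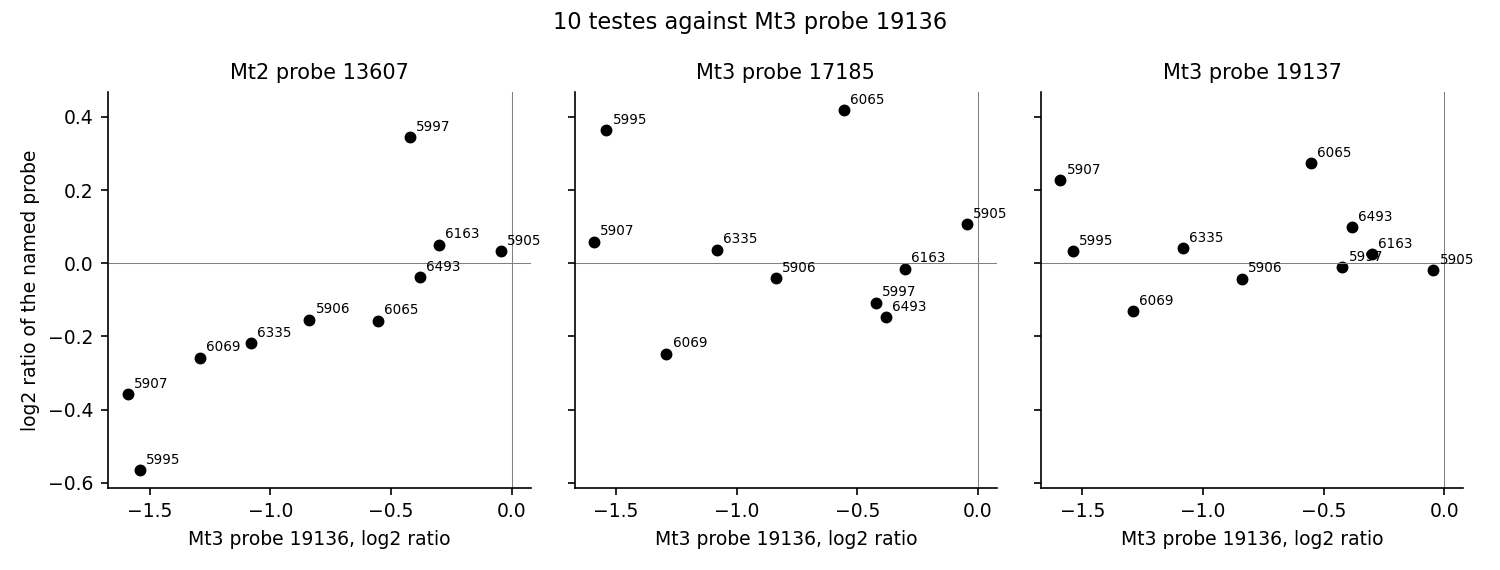
Log2 ratios of 10 testes, with Mt3 probe 19136 on the horizontal axis and Mt2 probe 13607 or another Mt3 probe on the vertical axis. Each dot is a mouse, with its number. Mt2 probe 13607 follows the order of Mt3 probe 19136 (r = 0.827), and the other Mt3 probes do not (r = -0.124 and -0.0758).

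The named probes most like each member over the 10 testes were sought among 13342 with values in both dyes in all mice, as a description. They shared arrays and the wt pool with the metallothioneins. Mt3 probe 19136, added to this search after its values were seen, was most like Alpl, tissue-nonspecific alkaline phosphatase, a zinc enzyme (r = 0.978), followed by the transcription factor gene Runx1 (0.954), the phosphatase subunit gene Ppp2r5d (0.95), the protease inhibitor gene Spink5 (0.943) and the DNA repair gene Xpc (0.937). Alpl averaged -0.83 ± 0.57 in the testis and -0.04 ± 0.28 in the cord. Ppp2r5d, like Mt3 probe 19136, was low in the testis (-1.04 ± 0.65) and high in the cord (1.06 ± 0.58), but its other probe was at 0.04 and 0.11 and correlated at r = 0.472. The other Runx1 probe correlated at 0.0119.

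Mt3 probe 17185 was most like Ntrk2 (r = 0.939), the receptor of BDNF, then Etv4, Wdr1, Aqp1 and Champ1 (0.917 to 0.901), and the other probes of Ntrk2 and Wdr1 correlated at -0.683 and 0.423. Mt1 was most like Tprn (0.928), then Cyth2, Cntn1, Stpg4 and 4930550C14Rik (0.902 to 0.88). The other Cyth2 probes correlated at -0.726 and 0.189, those of Cntn1 at -0.547 and -0.24, and that of Stpg4 at 0.563. Mt2 probe 11896 was most like Mrs2 (0.97), the magnesium channel of mitochondria, then Mrps25, Slc38a5, Arf4 and Chchd7 (0.903 to 0.898), and the other Mrps25 probe correlated at -0.248. Without the 2 mice farthest from the median, among them 5907, r for Arf4 was 0.534 and for Mrs2 0.901. The lists of the members shared no gene.

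Zinc sensor and transporter genes differed little from the wt pool in the testis. Of 15 measured, 1 rose and 3 fell (limma, adjusted p under 0.05), 26.7% against 12.3% of all probes, and their median ratio was -0.04. Slc30a2, a transporter that loads zinc into vesicles, rose by 0.24 ± 0.19 and was above 0 in 10 of 10 mice (limma, adjusted p = 0.029). Slc39a10, a zinc importer, fell by 0.21 ± 0.20 (limma, adjusted p = 0.0473), and Slc39a3, another importer, fell by 0.15 ± 0.11 (limma, adjusted p = 0.0329). The other Slc39a10 probes were both at -0.155 and did not pass (limma, adjusted p = 0.108 and 0.132). Slc30a6, a zinc transporter of the Golgi, fell by 0.19 ± 0.14 (limma, adjusted p = 0.0248), while its other probe was at 0.05. Mtf1, the gene of the metal sensor, was at -0.10 ± 0.14, and Slc30a1, a zinc exporter that MTF1 is known to induce, at 0.00 ± 0.11 (limma, adjusted p = 0.166 and 0.948).

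These calls were small and lay near the threshold. With 1 mouse left out at a time, Slc30a2 stayed between 0.20 and 0.26, Slc30a6 between -0.21 and -0.16, Slc39a3 between -0.16 and -0.13 and Slc39a10 between -0.25 and -0.18, with limma adjusted p of up to 0.0669, 0.059, 0.071 and 0.0922. In these fits between 0 and 1 zinc gene rose and between 0 and 3 fell. Both counts were 0 without mouse 6069 or mouse 6493, the count of genes that rose was also 0 without 5906, 5907, 6335 or 5995, and the count that fell was 1 without 5907, 6163 or 5997. Both were 0 with Cy5 arrays alone, and both were 0 with the Cy3 arrays turned. In the cord 0 of 15 zinc genes passed in limma (1 at an unadjusted p under 0.05), and the furthest from 0 were Slc30a5 at -1.07 ± 2.01, Slc30a6 at 0.57 ± 0.30 and Slc39a11 at 0.53 ± 0.92 (n = 3).

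**Figure D5:**
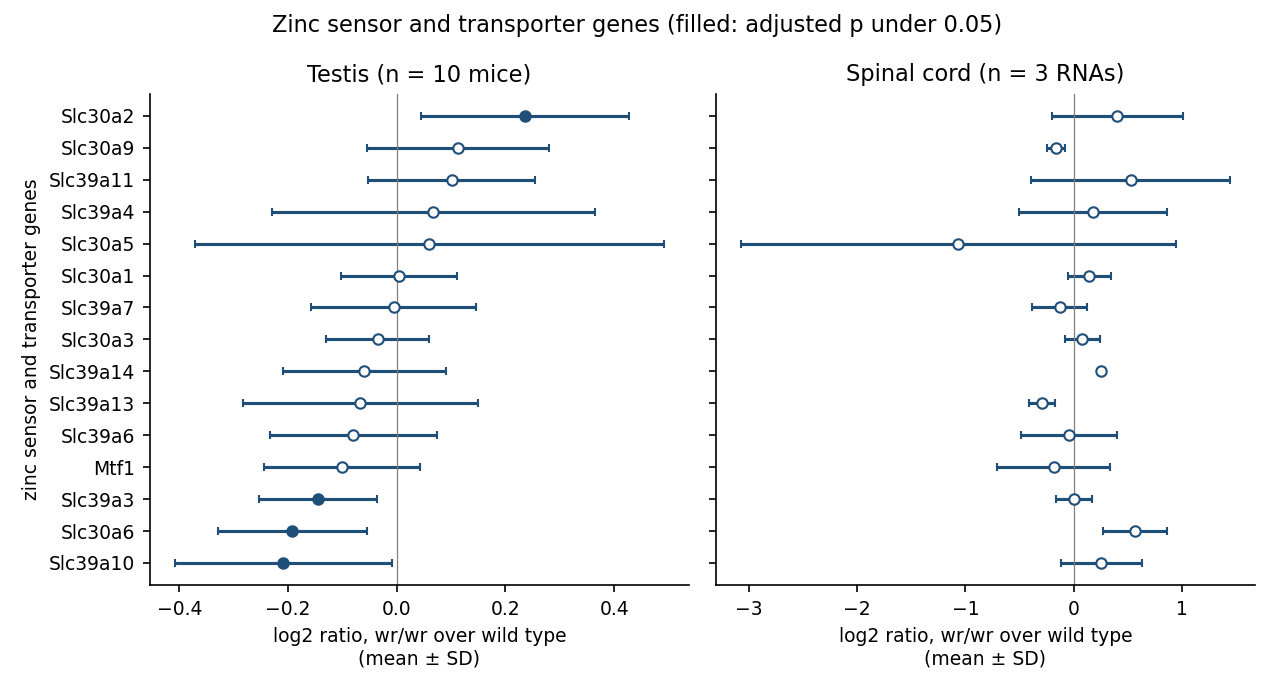
Mean log2 ratio of wr/wr over wt ± SD (horizontal axes) for the 15 measured zinc sensor and transporter genes in testis and spinal cord, in the order of their testis means, with filled points at a limma adjusted p under 0.05. Slc30a2 stands at the top with 0.24 and Slc39a10 at the bottom with -0.21 in testis, and no gene is filled in the cord.

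Genes that handle copper and iron, the other metals tied to metallothioneins, gave calls of the same small size in the testis. Of 9 copper genes 2 rose and 1 fell, 33.3% against 12.3% of all probes. With the Cy3 arrays turned, 1 rose and 0 fell. Atp7a, a copper pump of the Golgi, rose by 0.23 ± 0.13 and the copper importer Slc31a1 by 0.16 ± 0.12, and Loxl1, a copper-dependent lysyl oxidase, fell by 0.20 ± 0.13 (limma, adjusted p = 0.0154, 0.0312 and 0.0195). The other probes of Slc31a1 and Loxl1 were at 0.12 and -0.33 and did not pass (limma, adjusted p = 0.124 and 0.264). Atp7a and Loxl1 passed without any 1 of the 10 mice, and Slc31a1 in 5 of these 10 fits. The count that rose was 1 without 5906, 5907, 6069, 6493 or 6065. Of 11 iron genes 3 rose and 0 fell, 27.3% against 12.3% of all probes called and 7.28% called higher. They were Heph, a ferroxidase that exports iron, by 0.23, Pcbp1, an iron chaperone, by 0.21, and Ncoa4, the ferritin receptor of autophagy, by 0.20 (limma, adjusted p = 0.0397, 0.0451 and 0.0255). The other Ncoa4 probe was at 0.06 and did not pass (limma, adjusted p = 0.577). The iron count was between 0 and 4 with 1 mouse left out, at 0 without 6335 or 6493 and at 1 without 5906, 5907, 6069, 5995, 6163 or 6065, and it was 0 on Cy3 arrays alone and with the Cy3 arrays turned. In the cord Loxl1 was at -1.23 ± 2.41, Commd1 at -0.39 ± 0.07, Steap3 at 0.55 ± 0.68 and the ferritin gene Fth1 at -0.47 ± 0.49, none of them past the threshold.

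Of 19 oxidant defence genes 4 rose and 0 fell in the testis, 21.1% against 12.3% of all probes called and 7.28% called higher. They were Txn1, thioredoxin, by 0.35 ± 0.26, the peroxiredoxin genes Prdx4 and Prdx2 by 0.26 ± 0.23 and 0.23 ± 0.21, and Gpx4, the selenoenzyme that is also a structural protein of sperm, by 0.20 ± 0.15 (limma, adjusted p = 0.0221, 0.0386, 0.0412 and 0.0262). Txn1 was above 0 in 10 of 10 mice. The count was between 0 and 5 with 1 mouse left out, at 0 without 6493, 1 without 5907, 6069 or 6335 and 2 without 6163, and it was 6 on Cy5 arrays alone, 0 on Cy3 arrays alone and 2 with the Cy3 arrays turned. In the cord Prdx4 was at 0.90 ± 0.62 and Gpx4 at -0.38 ± 0.02 without passing the threshold.

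Of 14 glucocorticoid-responsive genes 0 passed in limma in the testis (4 at an unadjusted p under 0.05), where the median was -0.05. Glul, glutamine synthetase, was at -0.36 ± 0.39 on the probe used (limma, adjusted p = 0.0588) and at -1.25 on its other probe (adjusted p = 0.0101). Without mouse 5905, or with the Cy3 arrays turned, 1 rose. Without mouse 5995, on Cy3 arrays alone, after scaling between arrays or with the probes of a gene averaged, 1 fell. The same genes had a median of -0.28 in the cord, where the kinase inhibitor gene Cdkn1a was at -1.49 ± 0.32, the lipid droplet gene Plin4 at -1.01 ± 0.41 and Gpd1 at -0.97 ± 0.21, each below 0 in 3 of 3 RNAs and none past the threshold (5 of 12 at an unadjusted p under 0.05). Of 12 STAT3 and acute phase genes 2 rose in the testis, Timp1 by 0.27 and Vim by 0.23, and Cntf fell by 0.23 (limma, adjusted p = 0.0369, 0.0386 and 0.0269), 25.0% against 12.3% of all probes. The other probes of Timp1, Vim and Cntf were at -0.51, 0.40 and -0.12 (limma, adjusted p = 0.124, 0.00983 and 0.114). Lcn2, lipocalin 2, was at -0.11 ± 0.15 on the probe used (limma, adjusted p = 0.155) and at -1.39 on its other probe (adjusted p = 0.00126). With the Cy3 arrays turned, 2 genes of the list rose and 0 fell, and after scaling or with the probes of a gene averaged 2 fell. On Cy5 arrays alone 3 rose and 0 fell, and on Cy3 arrays alone 0 rose and 2 fell. Without 5907, 6069, 6335 or 6493, 0 of these genes rose, without 5906, 5995 or 6163 1 rose, and without 6069, 6493 or 6163 0 fell. In the cord Vim was at 1.15 ± 0.18 and Gfap at 0.69 ± 0.28, each above 0 in 3 of 3 RNAs and neither past the threshold.

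Cell type markers moved in the same testes. Of 7 Leydig cell markers 5 fell, against 5.06% of all probes. Their list median was -0.55 and lay between -0.66 and -0.29 over the 10 mice. Hsd3b1 of this list went the other way, at 0.25, and was above 0 in 8 of 10 mice (limma, adjusted p = 0.0665). Of 8 Sertoli cell markers 5 rose, against 7.28% of all probes, with a median of 0.34 and between 0.02 and 0.62 over mice. Sox9 was among the 5 at 0.19, but its other probe was at -0.14 (limma, adjusted p = 0.023 and 0.14). Rhox5 of the Sertoli list was at -0.01. Mt3 probe 19136 did not follow these lists over mice (r = -0.0211 with the Leydig and -0.312 with the Sertoli median), and its correlations with 9 cell type lists had adjusted permutation p between 0.414 and 0.964. Of 3 spermatocyte markers 1 rose and 1 fell in the testis, and of 10 spermatid markers 0 were called, against 12.3% of all probes. However, 8 of the 10 spermatid markers were called for spread among the testis mice, against 9.85% of all probes. Their list median ran between -0.43 in mouse 5995 and 0.48 in mouse 6065. In the cord the 9 measured microglia markers had a median of 0.67 the 14 astrocyte markers 0.20, the 8 neuron markers -0.24 and the 4 oligodendrocyte markers -0.35, and the list medians over the 3 RNAs ran between 0.67 and 0.75 for microglia, between 0.06 and 0.21 for astrocytes, between -0.50 and -0.16 for neurons and between -0.38 and -0.31 for oligodendrocytes. In limma 0 of the members of these 4 lists passed in the cord (17 at an unadjusted p under 0.05). The part of any cell type in the metallothionein ratios was not tested.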

How the data were processed

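The authors deposited log2 ratios for 20355 probes on 50 arrays with 2 colours, hybridised with total RNA. The normalization behind these log2 ratios is not given in the sources used here. Probes were named through the platform's annotation, in which 14030 have 1 gene symbol, 5 several and 6320 none. Each array was centred on its median, arrays of 1 RNA were averaged within a dye and then between dyes, and an RNA counts as 1 replicate. Ratios were not turned in sign.

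Probes with both dyes in at least 8 of 10 testes (20218) or in all 3 cord RNAs (17055) were fitted with limma 3.58.1 in R 4.3.3, with Benjamini-Hochberg adjustment over all of them and a threshold of 0.05. The ratio was tested against 0, the spread among RNAs by a moderated F over arrays with dye as a term, and the dye orientations by their difference per RNA. The code was tested on simulated data. Correlations over mice have 100000 permutations. A gene of a list was read on its probe with most values. The text names every member, up to 4 called genes of a list in testis, up to 3 of largest size in cord, and the 5 genes most like a member.

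The metallothioneins and the gene lists were chosen with earlier results of these data known. The cord RNAs share animals with the testes. Their deviations correlated at -0.00268 for pool1, 0.0157 for pool2 and 0.00483 for mouse 5995 with those of the testes of their mice. The number of arrays limits the precision, and labels do not say whether hybridisations of a mouse were made from separate labellings.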

Additional observations from a re-analysis of the deposited data

Results flagged for a closer look

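On Mt3 probe 19136, all 10 testes were below the wt pool and all 3 cord RNAs above it, and the difference testis minus cord was -1.253. This difference was not tested, since both ratios were known when the probe was chosen. Other settings gave differences between -1.678 and -0.829. These did not include turning the sign of the Cy3 arrays, which put the probe at 0.051 in testis and 0.476 in cord. As the ratios are read here, it was above 0 on 2 of 5 Cy3 arrays in the cord.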

How the results depend on the processing

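Leaving out a mouse kept Mt3 probe 19136 between -0.889 and -0.717 in testis, and leaving out a cord RNA kept it between 0.21 and 0.571 in cord. With Cy5 arrays only, the cord ratios were 0.621 for Mt1, -0.475 and -0.059 for Mt2 probes 11896 and 13607, and 0.015, 0.925 and -0.06 for Mt3 probes 17185, 19136 and 19137, and Mt1 was at 0.309 in testis. With Cy3 arrays only, these cord ratios were -0.753, 0.656, 0.487, -0.929, -0.027 and -0.398, and Mt1 was at -0.204 in testis. The difference testis minus cord of Mt3 probe 17185 was -0.062 with Cy5 arrays only. With the Cy3 arrays turned in sign, Mt3 probe 19136 was at 0.051, Mt2 probe 11896 at -0.552 and Mt1 at 0.257 in testis. The cord then gave 0.687 for Mt1 and -0.566 and -0.273 for Mt2 probes 11896 and 13607. Mt3 probes 17185, 19136 and 19137 were then at 0.472, 0.476 and 0.169 in the cord, all above 0. So turned, Slc30a2 was at -0.08, Slc30a6 at 0.039, Slc39a3 at 0.088, Slc39a10 at 0.134, Atp7a at -0.076, Slc31a1 at -0.018, Loxl1 at 0.131 and Cntf at 0.098.

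Probes called by limma in testis numbered 2494, against 3425 with Cy5 arrays only, 3134 after scaling between arrays, 1359 with Cy3 arrays only, 949 with the Cy3 arrays turned and between 846 (without mouse 6493) and 2618 (without 5905) with a mouse left out. Calls fell to 1614 without 5906, 1296 without 5907, 1036 without 6069, 1278 without 6335 and 1567 without 5995. The tissue difference gave 3604 calls, 1588 with Cy5 arrays only and 0 with a replicate block that paired each cord RNA with the testes of its mice. That paired fit held only 3 differences. Dye orientation in testis gave 949 calls, 2015 after scaling between arrays and between 1 (without 5907, 6069, 5905 or 5997) and 1348 (without 6065) with a mouse left out. Spread among testis mice gave 1992 calls, 918 without 5995 and 3040 without 6065. Spread among cord RNAs gave 0 calls, 1 without centring, 2 with values above 15 in size as missing and 3 without the dye term. Fewer samples enter the fits without a mouse, and otherwise the cause was not tested.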

Other observations

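Mt3 probe 19136 was not alone in being low in the testis and high in the cord. Itih2, a plasma protein that stabilises hyaluronan, was at -1.28 ± 1.22 in the testis and 2.24 ± 0.53 in the cord. Glul, glutamine synthetase, was at -1.25 ± 0.67 and 1.23 ± 0.45 on probe 19121, and at -0.36 ± 0.39 and -0.48 ± 0.04 on probe 2516. Atp5h, a subunit of ATP synthase, was at -1.48 ± 1.26 and 1.55 ± 0.60 on probe 19180, at 0.24 ± 0.18 and -0.36 ± 0.08 on probe 18894, and at -0.11 ± 0.42 in the testis on probe 3607. Slc1a2, the glutamate transporter of astrocytes, was at -1.08 ± 0.78 and 0.24 ± 0.18 on probe 16459, and its 3 other probes lay between -0.16 and 0.03 in the testis. In the cord those 3 probes were at 0.36, 0.35 and -0.20, so probe 16459 was not the highest of the gene there. These genes were picked after their values were seen. Over the 10 testes, Mt3 probe 19136 correlated at r = 0.722 with Itih2, 0.858 with Glul probe 19121, 0.793 with Atp5h probe 19180 and 0.76 with Slc1a2 probe 16459, as a description over libraries that share arrays and a wt pool. It correlated at -0.515 with Glul probe 2516 and at -0.574 with Atp5h probe 18894. As with Mt3, the probes of Glul, Atp5h and Slc1a2 gave different ratios within 1 gene.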
